A study of Mus musculus with 23 samples.

Results

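The genes Ddias, Cox6b2, Bex1, Scara3, Tmem45a and Ppp1r14a were followed in the livers of mice given 1-methoxy-3-indolylmethyl alcohol (1-MIM-OH). They were chosen by their log2 differences between treated and vehicle livers after 40 treatments, which were among the largest, and because none of them was on a list of targets of the transcription factor p53 drawn up in earlier work on these data. The choice thus used the livers of both groups at 90 d, and values of that contrast are given as a description, without a test. The genes are 6 of the 18193 that the platform annotation pairs with at least 1 probe set of their own. Together they have 7 of the 45037 probe sets: 2 for Ddias and 1 for each of the others. A gene was represented by its probe set with the highest mean over the 23 arrays.

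All animals were male, carried the human sulfotransferase genes SULT1A1 and SULT1A2 hemizygously on the FVB/N background, and were labelled as 5 weeks old, without a statement of the point at which age was taken. Which promoter drives the transgenes is not given in the sources used here. Animals of the treated groups were given 26 mg of 1-MIM-OH per kg orally on 3 days of each week, and the vehicle groups glyceryl trioctanoate alone. After 10 treatments (21 d) there were 5 treated and 6 vehicle livers, and after 40 (90 d) there were 6 in each group, all taken 24 h from the final dose. Each liver's RNA was measured on 1 Affymetrix array of the mouse genome. Values are log2 signals, so equal differences are equal ratios, and levels of different probe sets are not comparable with each other.

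1-MIM-OH is a breakdown product of a glucosinolate of cabbage plants. Sulfotransferases turn it into a reactive ester that binds to DNA. DNA damage stabilises p53, which switches on Cdkn1a, the gene of the cell cycle inhibitor p21, and Cdkn1a therefore served here as a measure of the response in each liver. The 6 genes have varied roles. Ddias encodes a suppressor of apoptosis after DNA damage, also called noxin. Cox6b2 encodes the testis form of a subunit of cytochrome c oxidase, the last enzyme of the respiratory chain. Bex1 belongs to a family of small adaptor proteins best known from neurons. Scara3 is a member of the class A scavenger receptor family, described in human cells as protective under oxidative stress. Tmem45a encodes a membrane protein with several membrane passages. Ppp1r14a encodes CPI-17, an inhibitor of myosin phosphatase that keeps smooth muscle contracted.

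Markers of the tissue and of RNA state are given first because several values stand beside them. The mean log2 signal over 8 hepatocyte markers (among them Alb and Ttr) lay between 13.93 and 14.18 on all 23 arrays. The Gapdh control, whose 3' minus 5' difference grows when RNA or labelled product is shortened, exceeded 0.9 on 5 arrays: treated 21 d replicates 1, 3, 4 and 5 (1.02 to 1.45) and treated 90 d replicate 6 (1.24). Treated 21 d replicate 2 had 0.14, and the vehicle arrays lay between 0.09 and 0.74. RNA came from whole liver, so a larger number of cells of a type and more RNA per cell cannot be told apart.

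The start regions of 5 of the 6 genes were in a RefSeq table of the GRCm38.p6 assembly, which gives 250 bases before and 50 bases after each gene start. Those of 3 genes are shown: Ddias and Cox6b2, the pair with the most alike signals over the arrays (Pearson's r = 0.935), and Tmem45a, which held the only match to the p53 half-site among the 5. They lie on the minus strand at chr7:92874198-92874497 (Ddias), chr7:4753045-4753344 (Cox6b2) and chr16:56886114-56886413 (Tmem45a) and are printed 5′ to 3′ in the direction of transcription. Capitals mark the matches to any of 8 motifs searched on both strands.
Ddias: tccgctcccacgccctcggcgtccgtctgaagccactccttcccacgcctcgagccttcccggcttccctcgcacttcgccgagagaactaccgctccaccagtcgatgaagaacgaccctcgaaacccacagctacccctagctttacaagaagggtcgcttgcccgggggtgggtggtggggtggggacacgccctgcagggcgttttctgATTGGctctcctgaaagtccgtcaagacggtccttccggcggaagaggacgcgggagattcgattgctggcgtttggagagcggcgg
Cox6b2: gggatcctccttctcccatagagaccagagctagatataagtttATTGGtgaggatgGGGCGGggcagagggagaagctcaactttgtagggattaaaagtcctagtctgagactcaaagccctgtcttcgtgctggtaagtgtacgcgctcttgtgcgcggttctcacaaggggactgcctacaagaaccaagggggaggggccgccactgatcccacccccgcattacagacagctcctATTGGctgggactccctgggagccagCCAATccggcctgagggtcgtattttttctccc
Tmem45a: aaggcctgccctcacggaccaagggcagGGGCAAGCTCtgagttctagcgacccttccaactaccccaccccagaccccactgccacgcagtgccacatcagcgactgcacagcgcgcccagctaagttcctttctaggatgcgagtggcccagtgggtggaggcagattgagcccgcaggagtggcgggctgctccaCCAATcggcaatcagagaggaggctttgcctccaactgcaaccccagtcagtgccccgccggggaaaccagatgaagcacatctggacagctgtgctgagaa

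The motifs were the p53 half-site and the CArG box by their consensus, the CHR element TTTGAA, the CCAAT box, the TATA box TATAAA, the GC box GGGCGG, the AP-1 site TGANTCA and the antioxidant response core TGACNNNGC. No match overlapped another in the regions shown. The CCAAT box, read on either strand, was present in Ddias (first base at -37 from the gene start), in Cox6b2 (-206, -9 and 18) and in Tmem45a (-52), and in 37.4% of all 32851 regions of the table. A GC box was present in Cox6b2, Bex1 and Ppp1r14a and in 35.7% of all regions. The single half-site of Tmem45a began at -222, and 8.36% of all regions held one. One of the start regions of Cdkn1a held a pair of half-sites, at -73 and -51. The CHR element, the TATA box, the AP-1 site, the antioxidant response core and the CArG box had no match in the 5 regions, against 17.9%, 13.6%, 7.81%, 12.4% and 1.63% of all regions. These are letter matches in a short window and carry no measurement of binding. Guanine and cytosine made up 55.7% to 71.3% of the 5 regions, with a median of 52.7% over the table.

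The description starts with 90 d, the time that chose the genes. Ddias had log2 signals of 7.58, 7.22, 6.47, 7.52, 7.26 and 5.43 in treated replicates 1 to 6, and between 4.75 and 5.53 (median 5.06) in the 6 vehicle livers. Replicate 6 thus lay within the vehicle range and the other 5 above it. The mean difference was 1.82 ± 0.29 (moderated SE), or 3.54-fold. The second Ddias probe set is dimmer and had the same direction, with 3.55 to 5.92 in treated and 2.98 to 3.51 in vehicle livers and no overlap (1.10 ± 0.25 SE).

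Cox6b2 followed a like course over the livers. Its treated signals at 90 d were 7.83, 6.93, 5.75, 7.55, 7.16 and 5.32, and vehicle livers lay between 4.94 and 5.35 (median 5.22). Replicate 6 was again inside the vehicle range, and replicate 3 was the next lowest. The difference was 1.56 ± 0.29 (SE), or 2.95-fold.

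Bex1 was dim in vehicle livers at 90 d, between 3.53 and 4.08 (median 3.80), where the medians of whole arrays were 5.53 to 5.61. Its treated signals were 6.01, 5.05, 4.48, 5.51, 5.80 and 4.42, all above the vehicle range, with replicates 6 and 3 lowest. The difference was 1.39 ± 0.24 (SE), or 2.61-fold. The annotation pairs this probe set with Bex1 alone. Bex1 and its relative Bex2 are close in sequence. The Bex2 probe set had a difference of -0.015 ± 0.07 (SE, limma adjusted p = 0.967) at 90 d. The part of relatives in the Bex1 signal was not tested. The vehicle 90 d medians of Ddias (5.06), Cox6b2 (5.22), Scara3 (5.12) and Ppp1r14a (5.39) also lay below the array medians, though less far than that of Bex1.

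The membrane proteins Scara3 and Tmem45a behaved alike at 90 d. Scara3 had 6.91, 6.86, 5.54, 6.75, 6.82 and 6.06 in treated livers and 4.71 to 5.89 (median 5.12) in vehicle livers. Replicate 3 lay inside the vehicle range, and replicate 6 just above it. Tmem45a had 7.75, 6.95, 6.16, 7.0, 7.55 and 6.41 in treated livers and 5.31 to 6.19 (median 5.78) in vehicle livers, and replicate 3 was here too the only treated liver inside the vehicle range. The differences were 1.30 ± 0.24 (SE) for Scara3 and 1.18 ± 0.23 (SE) for Tmem45a, or 2.46-fold and 2.26-fold.

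Ppp1r14a had another order. Its treated signals at 90 d were 6.10, 6.61, 6.68, 6.02, 6.30 and 7.23, against 4.88 to 5.67 (median 5.39) in vehicle livers. All 6 treated livers lay above the vehicle range, and the highest signals were those of replicates 6 and 3, where the 5 other genes were at their lowest. The difference was 1.13 ± 0.23 (SE), or 2.18-fold.

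**Figure D1:**
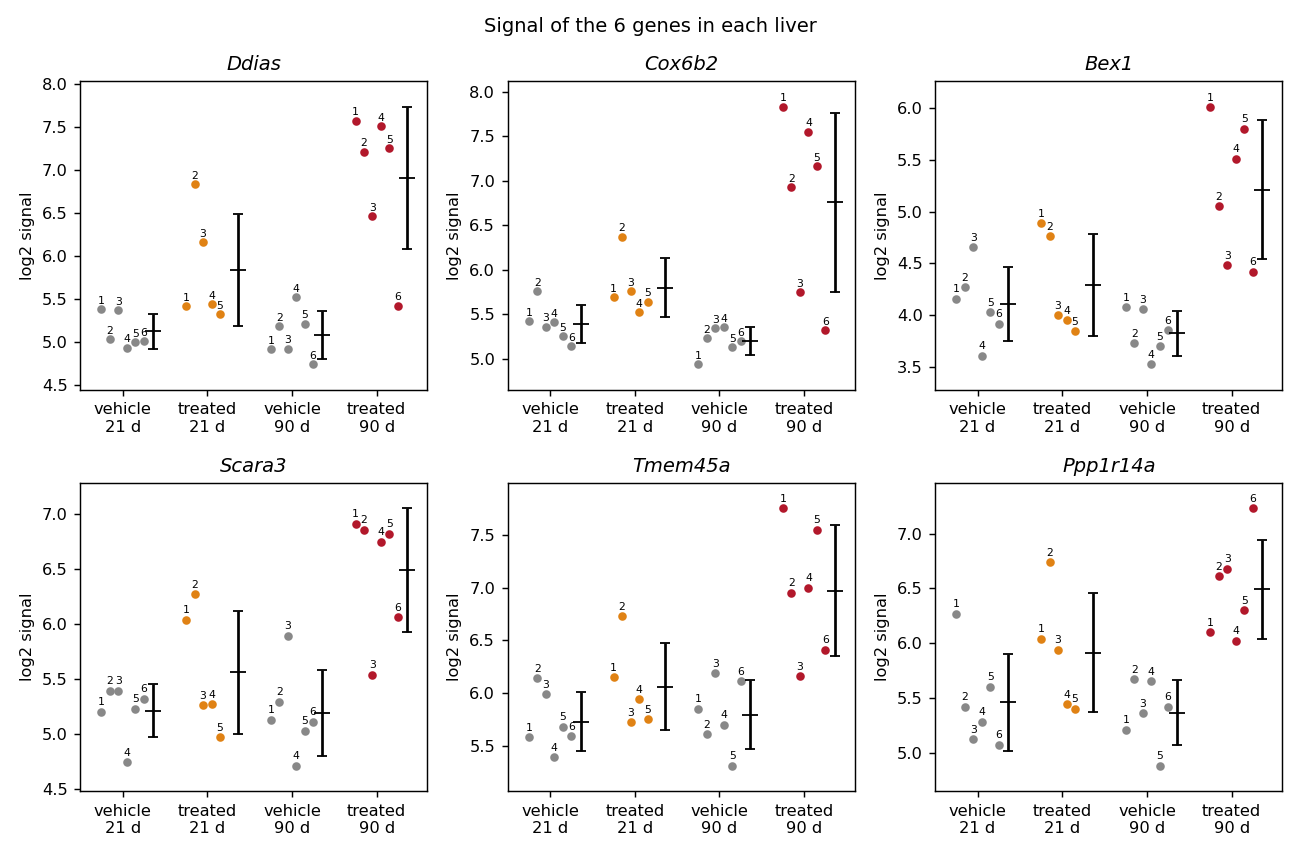
Log2 signal (vertical axes) of the 6 genes in vehicle and treated livers at 21 d and 90 d, 1 panel per gene. Each point is 1 liver with its replicate number, and the bars show the mean ± SD of 5 or 6 livers. In the treated 90 d group replicates 3 and 6 are lowest in 5 panels and highest for Ppp1r14a.

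In the order of 90 d differences over 18193 genes, where Cdkn1a was 1st, the 6 genes stood at ranks 6 (Ddias), 7 (Cox6b2), 8 (Bex1), 9 (Scara3), 13 (Tmem45a) and 15 (Ppp1r14a). The signals of all treated livers lay above all vehicle livers for Bex1 and Ppp1r14a, as they did for 0.967% of all genes at 90 d. This share is given as background only, since the same contrast chose the genes.

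The rule of choice did not use the 21 d livers, though earlier results of these data were known when the genes were chosen. The comparison at 21 d asked whether the 6 genes already differed after 10 treatments. Of the 6, 0 passed limma's test at an adjusted p under 0.05 over all 45037 probe sets, where 0.577% of all genes passed as higher. At an unadjusted p under 0.05, 1 of the 6, Ddias, was higher, against 8.44% of all genes. For 0 of 6 did all treated livers lie above all vehicle livers, as they did for 1.53% of all genes. All 6 mean differences were above 0, as were those of 43.7% of all genes. Their median was 0.38 on the log2 scale and that of all genes -0.02.

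Ddias was the nearest to a call at 21 d. Its signals were 5.42, 6.84, 6.17, 5.45 and 5.33 in treated replicates 1 to 5 and 4.94 to 5.39 (median 5.03) in the 6 vehicle livers, so that 4 of 5 treated livers lay above all vehicle livers. Its mean difference was the 37th largest positive one among all genes. It was 0.71 ± 0.30 (SE), with a limma adjusted p of 0.241, which ranged from 0.0123 to 0.394 over the alternative settings, and a 2-sided exact permutation p of 0.00866 without adjustment. With the Gapdh difference of each array as a covariate the Ddias value was 1.52 ± 0.27 (SE, limma adjusted p = 0.0123). At 21 d that difference was 0.09 to 0.49 in vehicle livers, 0.14 in treated replicate 2 and 1.02 to 1.45 in treated replicates 1, 3, 4 and 5. Treatment and Gapdh difference are thus hard to separate at 21 d, and the covariate value is not an independent correction for RNA state. Without the 5 arrays over 0.9 the Ddias value was 1.71 ± 0.30 (SE). This setting leaves replicate 2 as the only treated liver at 21 d and takes its spread from the other groups.

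The dimmer probe set of Ddias separated the groups at 21 d. Treated livers had 3.67, 3.79, 3.53, 3.65 and 3.72, and vehicle livers 3.23 to 3.48, with all treated above all vehicle as for 1.02% of all probe sets. The difference was small, 0.32 ± 0.26 (SE), and did not pass (limma adjusted p = 0.603). The SE comes from all 4 groups, in which the SD was 0.10 in treated livers at 21 d and 0.89 in treated livers at 90 d. With the 21 d livers alone the SE was 0.07 and the limma adjusted p 0.0557 (range over the settings 0.0557 to 0.828), and the 2-sided exact permutation p was 0.00216, the smallest that 5 against 6 livers allow.

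The other 5 genes had smaller differences at 21 d in the fit of all arrays. Cox6b2 had 5.69, 6.37, 5.76, 5.52 and 5.64 in treated livers and 5.14 to 5.76 in vehicle livers, a difference of 0.41 ± 0.30 (SE, limma adjusted p = 0.571), and only replicate 2 lay above the vehicle range. Ppp1r14a had 6.04, 6.74, 5.94, 5.44 and 5.40 in treated and 5.07 to 6.27 in vehicle livers, a difference of 0.45 ± 0.24 (SE, adjusted p = 0.374), and replicate 2 alone exceeded the vehicle livers. For Cox6b2 the 2-sided exact permutation p was 0.0238 without adjustment, and for the other 4 genes it was between 0.147 and 0.498.

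In Bex1, Scara3 and Tmem45a, treated 21 d replicates 1 and 2 lay above the vehicle livers and replicates 3, 4 and 5 did not. Bex1 had 4.89 and 4.76 in those 2 livers and 3.85 to 4.0 in the other 3, with 3.61 to 4.66 in vehicle livers. Scara3 had 6.04 and 6.27, then 4.97 to 5.27, with 4.74 to 5.39 in vehicle livers. Tmem45a had 6.15 and 6.73, then 5.72 to 5.94, with 5.39 to 6.14 in vehicle livers.

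The differences of these 3 genes at 21 d were 0.18 ± 0.26, 0.35 ± 0.25 and 0.33 ± 0.24 (SE), with limma adjusted p-values of 0.800, 0.545 and 0.551. The intervals were wide, and the 95% interval of the Bex1 difference ran from -0.35 to 0.71.

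The settings that take RNA state into account moved the 21 d values of all 6 genes upward. With the Gapdh difference as a covariate the median was 0.63, and that of all genes 0.003. The limit given above for the covariate applies to this median too. Without the 5 arrays over 0.9, where replicate 2 is the only treated liver, the median was 1.03, and that of all genes -4.4e-16. The values without those arrays were 0.98 for Cox6b2, 0.65 for Bex1, 1.06 for Scara3, 1.00 for Tmem45a and 1.28 for Ppp1r14a. With the covariate Ddias alone of the 6 passed at a limma adjusted p under 0.05, as did 123 of the 45037 probe sets.

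Treated 21 d replicate 2 was the highest treated liver of its group for every one of the 6 genes but Bex1, where replicate 1 was higher. All 6 genes of replicate 2 exceeded the highest vehicle liver of that time, as 21.9% of all genes did there. In replicates 1, 3, 4 and 5 the number was 4, 1, 1 and 0 of 6, with 20.5%, 21.4%, 15.6% and 16.9% of all genes. Without replicate 2 the median difference of the 6 genes at 21 d was 0.21, with 0.46 for Ddias, 0.26 for Cox6b2 and 0.25 for Ppp1r14a, and no gene reached an unadjusted p under 0.05. Nor did any without replicate 3. The Bex1 value, 0.18, was 0.03 without replicate 1 and 0.06 without replicate 2.

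Replicate 2 also stood apart in other measures. Its Gapdh difference was 0.14 against at least 1.02 in the other treated 21 d livers. Its mean over 10 Kupffer cell and macrophage markers was 10.70, against 7.99 to 8.33 in the other 4. Vehicle 21 d replicate 1 had a like mean of these markers, 10.22, and signals of 5.39 for Ddias, 5.42 for Cox6b2, 4.16 for Bex1, 5.20 for Scara3 and 5.58 for Tmem45a, all below those of treated replicate 2. Its Ppp1r14a signal, 6.27, was the highest of the vehicle livers. The part of RNA state and of these cells in the values of replicate 2 was not tested.

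**Figure D2:**
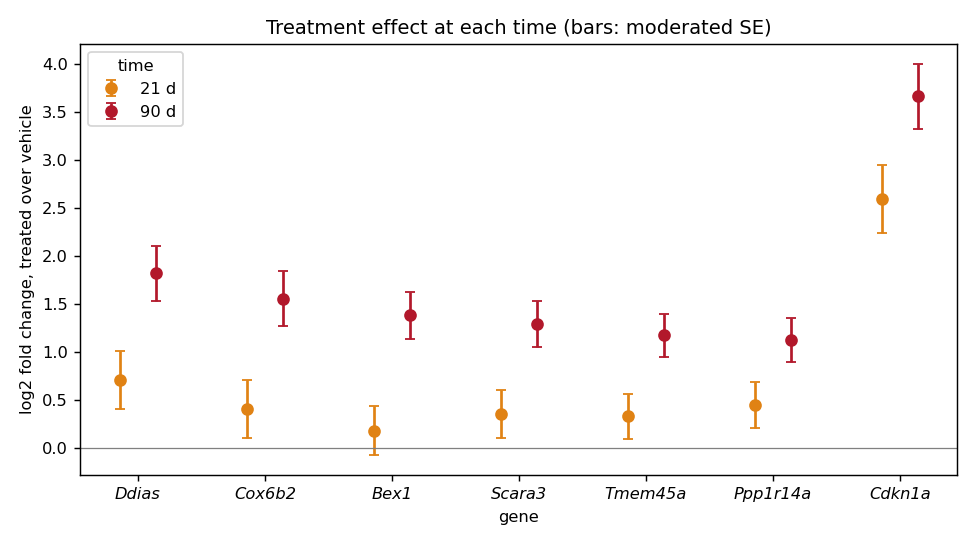
Log2 fold change of treated over vehicle livers (vertical axis) at 21 d and 90 d for the 6 genes and Cdkn1a. Points are differences of group means and bars the moderated SE; the 6 genes lie between 0.18 and 0.71 at 21 d and between 1.13 and 1.82 at 90 d, the time that chose them.

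Across the 4 groups, the means were ordered from low to high as vehicle 90 d, vehicle 21 d, treated 21 d, treated 90 d for 5 genes, and for Tmem45a the vehicle groups changed places. Neighbouring groups in this order overlapped in range at each of the 3 steps for all 6 genes. Vehicle 90 d minus vehicle 21 d lay between -0.28 ± 0.24 (SE, Bex1) and 0.07 ± 0.23 (SE, Tmem45a). Treated 90 d minus treated 21 d lay between 0.58 ± 0.24 (SE, Ppp1r14a) and 1.07 ± 0.30 (SE, Ddias). The effect at 90 d minus that at 21 d was between 0.67 ± 0.33 (SE, Ppp1r14a) and 1.20 ± 0.35 (SE, Bex1). These 3 contrasts share arrays with the one that chose the genes and were not tested.

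Cdkn1a was set beside the 6 genes liver by liver. At 21 d its signal was 8.98, 10.26, 9.59, 9.35 and 8.95 in treated replicates 1 to 5 and 6.41 to 7.17 in vehicle livers, a rise of 2.60 ± 0.36 (SE, limma adjusted p = 0.00135, between 0.000349 and 0.0107 over the settings). At 90 d it was 10.89, 10.69, 9.01, 11.79, 10.67 and 9.15 in treated replicates 1 to 6 and 6.41 to 7.27 in vehicle livers, a rise of 3.67 ± 0.34 (SE, limma adjusted p = 2.13e-06). The treated and vehicle livers did not overlap at either time, in contrast to most of the 6 genes. The second probe set of Cdkn1a rose too (1.78 ± 0.38 SE at 21 d, adjusted p = 0.0283; 3.03 ± 0.36 SE at 90 d, adjusted p = 9.66e-05), although its 21 d call ended in 6 of 32 alternatives.

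At 21 d the liver with the highest Cdkn1a, replicate 2, was also the highest for 5 of the 6 genes. Replicate 3, the next in Cdkn1a, was the next in Ddias (6.17) and in Cox6b2 (5.76, equal to the highest vehicle liver). It had 4.0 for Bex1, 5.26 for Scara3, 5.72 for Tmem45a and 5.94 for Ppp1r14a, all inside the vehicle ranges. For Tmem45a it was the lowest treated liver. Replicate 5, the lowest in Cdkn1a, was the lowest for Ddias, Bex1, Scara3 and Ppp1r14a.

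Over the treated livers at 90 d, all 6 genes exceeded the highest vehicle liver in replicates 1, 2, 4 and 5, where 24.7%, 22.3%, 21.8% and 25.1% of all genes did. In replicate 3 the 4 genes Ddias, Cox6b2, Bex1 and Ppp1r14a exceeded it (20.7% of all genes), and in replicate 6 the 4 genes Bex1, Scara3, Tmem45a and Ppp1r14a (22.2%). These counts describe the livers that chose the genes.

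At 90 d the 6 treated livers fell into separate groups by Cdkn1a: replicates 3 and 6 lay at 9.01 and 9.15 and the other 4 from 10.67 to 11.79, and this gap is 54.7% of the whole range. No correlation with Cdkn1a within these livers was computed for this reason, and the 5 treated livers at 21 d are too few for one. None over all arrays is given either, since Cdkn1a of treated and vehicle livers did not overlap. Replicates 3 and 6 held the 2 lowest signals for Ddias, Cox6b2, Bex1, Scara3 and Tmem45a, and the 2 highest for Ppp1r14a. Replicate 4, the highest in Cdkn1a, was the lowest for Ppp1r14a (6.02), while replicate 1 was the highest for the other 5 genes.

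Replicates 3 and 6 differed from each other in RNA state. The Gapdh difference was 0.21 in replicate 3 and 1.24 in replicate 6. In replicate 3 Ddias was 1.38 above the vehicle mean and Cox6b2 0.55, and in replicate 6 they were 0.34 and 0.12 above it. Scara3 and Tmem45a went the other way, with 0.35 and 0.36 above the vehicle mean in replicate 3 and 0.87 and 0.61 in replicate 6. Without replicate 6 the 90 d difference was 2.12 for Ddias and 0.98 for Ppp1r14a.

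**Figure D3:**
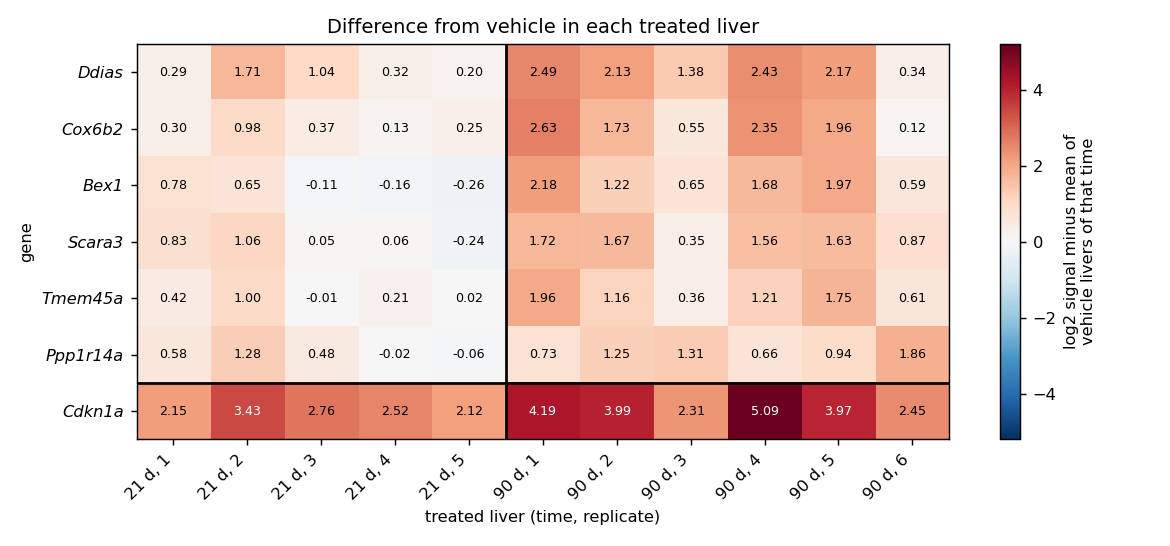
Log2 signal of each treated liver (columns, by time and replicate) minus the mean of the vehicle livers of that time, for the 6 genes and Cdkn1a (rows); colour gives the value printed in each cell. Replicate 2 at 21 d stands out among its group, and replicates 3 and 6 at 90 d are low in all rows but that of Ppp1r14a, where they reach 1.31 and 1.86.

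**Figure D4:**
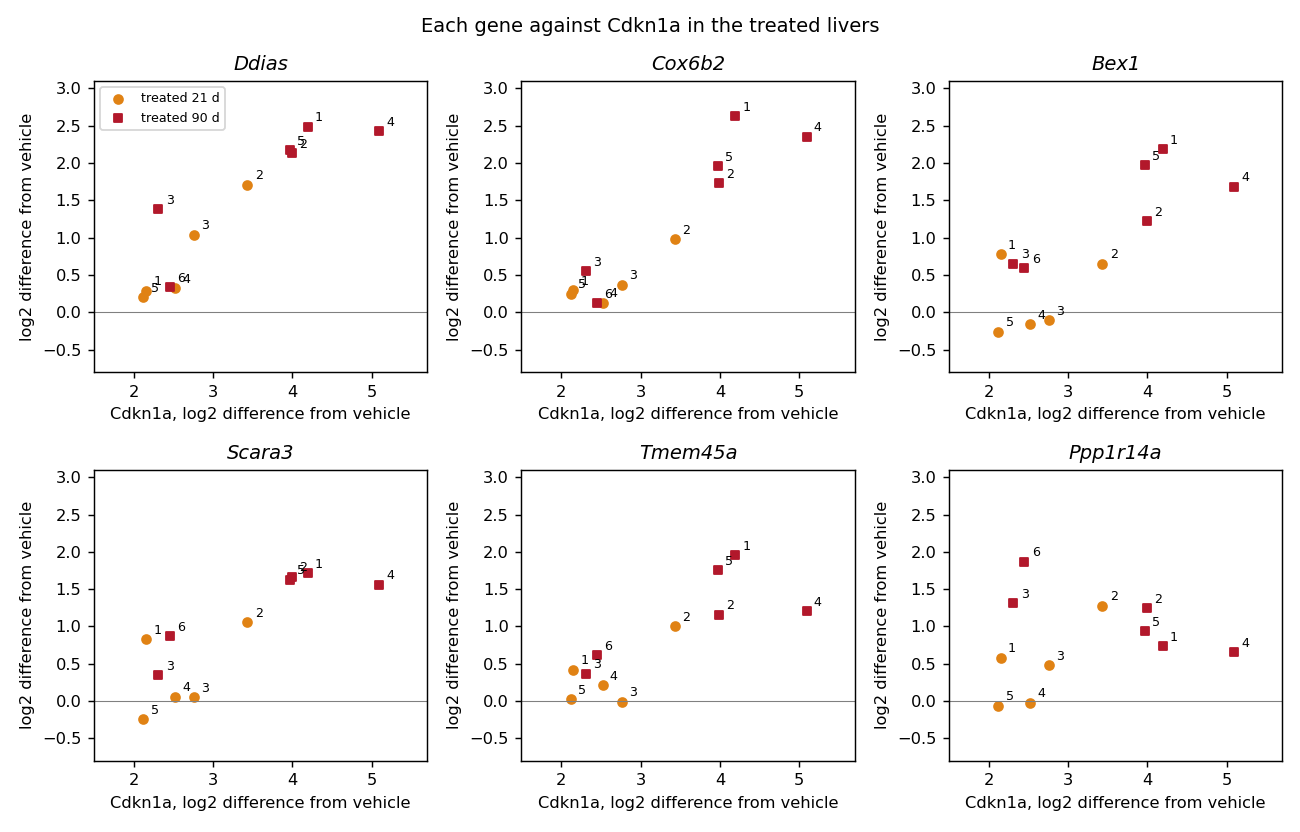
Difference from the vehicle mean of the same time for each gene (vertical axes, log2) against that of Cdkn1a (horizontal axes, log2) in the 5 treated livers at 21 d (circles) and the 6 at 90 d (squares), numbered by replicate. Replicates 3 and 6 at 90 d lie at 2.31 and 2.45 on the Cdkn1a axis, near the 21 d livers, and the other 4 between 3.97 and 5.09.

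The genes whose signals were most like those of each of the 6 over the 23 arrays were found by Pearson's r, as a description, since the arrays share the treatment groups. A high r among the 6 over all arrays is partly built in, because they were chosen by their rise in treated livers at 90 d. Ddias was most like Mbl2, a mannose-binding lectin secreted by hepatocytes (r = 0.971), the ectodysplasin receptor gene Eda2r (0.936), and Cox6b2 (0.935). Computed on deviations from the 4 group means, these r values were 0.909, 0.776 and 0.840. Such deviations keep the split of the treated 90 d livers described above, where the same livers were lowest for all of the 6 but Ppp1r14a. Likeness apart from treatment and this split was not tested. Cox6b2 was most like Ddias, Mbl2 (0.933) and the sulfatase gene Sulf2 (0.928). Mbl2 itself differed between treated and vehicle livers by 0.30 at 21 d and 0.61 at 90 d, less than either gene.

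Bex1, Scara3 and Tmem45a had each other as the nearest genes, with r between 0.923 and 0.930, and between 0.805 and 0.864 on deviations from group means. The limits given above for r over all arrays and for r on deviations apply to these values too. The third neighbour was Cbr3, a carbonyl reductase, for Bex1 (0.894), Mfge8, a secreted milk fat globule protein, for Scara3 (0.884), and Ddit4l, an inhibitor of mTOR signalling, for Tmem45a (0.915). Ppp1r14a had none of the other 5 among its 3 nearest genes. These were Capzb, an actin capping subunit (0.893), Ttc39a (0.877) and Faap20, a Fanconi anaemia core complex partner (0.871). The r of Ppp1r14a with the other 5 was between 0.468 and 0.611 over the arrays, and between -0.264 and 0.058 on deviations from group means.

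Genes of the same families, complexes and tissues were then examined in 14 lists with 151 measured genes. Of these, 0 passed at 21 d and 1 at 90 d in limma, where 1.17% and 0.748% of all genes passed. At an unadjusted p under 0.05 there were 14 (9.27%, against 16.6% of all genes) at 21 d and 27 (17.9%, against 12.1%) at 90 d. The medians over all genes were -0.02 at 21 d and 0.02 at 90 d.

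The gene that passed was Rpa1, the large subunit of the replication protein A complex that coats single-stranded DNA. At 90 d its signal averaged 10.35 ± 0.12 in treated livers and 10.03 ± 0.07 in vehicle livers (SD, n = 6 each), a rise of 0.32 ± 0.07 (SE, limma adjusted p = 0.0462). Its adjusted p lay between 0.016 and 0.142 over 33 alternatives and passed in 11 of them. At 21 d the difference was 0.29 ± 0.08 (SE, adjusted p = 0.0672). The other 8 measured genes of this list, subunits of the complex and its partners in damage signalling, did not pass at either time, and the list's median at 90 d was 0.04.

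Of 21 mitotic and S phase genes, listed as marks of dividing cells, 0 passed at either time. At 90 d all 21 values were above 0, as were 57.3% of all genes, with a median of 0.17 and 10 genes at an unadjusted p under 0.05. The largest were Ccnb2, a mitotic cyclin (0.77 ± 0.21 SE, limma adjusted p = 0.108, between 0.037 and 0.256 over the settings and under the threshold in 2 of 32), and Mcm5, a subunit of the replicative helicase (0.63 ± 0.24 SE, adjusted p = 0.34). Mcm5 has 3 probe sets, and its 90 d value ranged from 0.30 to 0.72 over the settings. At 21 d the median of the list was 0.01 and 11 of 21 were above 0.

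Of the 16 other cytochrome c oxidase subunits measured, 0 passed at either time, and 1 at each time had an unadjusted p under 0.05. Their median was 0.03 at 90 d, and Cox6b1, the form of the same subunit made in most tissues, had a difference of 0.02 ± 0.06 (SE, limma adjusted p = 0.938), which was -0.01 with quantile normalization. The largest values were those of the muscle forms Cox7a1 (0.77 ± 0.39 SE, adjusted p = 0.516) and Cox8b (0.61 ± 0.45 SE, adjusted p = 0.692), which rest on treated replicate 5, at 8.96 and 9.18 against 5.25 to 6.59 and 4.80 to 5.95 in the other treated livers. Without it Cox8b had -0.02 and Cox7a1 0.26, while Cox6b2 had 1.48.

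Cox6b2 is best known from testis, and 18 germ cell genes were therefore set beside it. None passed at either time, 0 at 21 d and 2 at 90 d had an unadjusted p under 0.05, and their mean level was 4.49 to 4.60 in treated and 4.50 to 4.55 in vehicle livers at 90 d. The largest differences were those of Gapdhs, a sperm glycolytic enzyme (0.31 ± 0.10 SE, limma adjusted p = 0.213), and Sycp3, of the synaptonemal complex (-0.26 ± 0.11 SE, adjusted p = 0.416).

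The relatives of Bex1, Scara3, Tmem45a and Ppp1r14a showed no passing gene either. Of 8 BEX and TCEAL genes, 0 passed and 3 had an unadjusted p under 0.05 at 90 d, with Bex4 at 0.37 ± 0.16 (SE, limma adjusted p = 0.404) and Tceal8 at 0.36 ± 0.13 (SE, adjusted p = 0.3). Of 12 scavenger receptors, 0 passed and 2 had an unadjusted p under 0.05 at 90 d. These were Colec12, with lower signals (-0.49 ± 0.17 SE, adjusted p = 0.268), and the macrophage receptor Cd163, with higher ones (0.61 ± 0.25 SE, adjusted p = 0.374). Colec12 passed in 1 of 33 alternatives. Larger differences that missed even the unadjusted limit were seen in 2 others. Scara5, of the same class as Scara3, had 1.20 ± 0.58 (SE, adjusted p = 0.492) and Marco 1.11 ± 0.77 (SE, adjusted p = 0.667). Both SEs were larger than that of Scara3. Over the settings Scara5 ranged from 0.60 to 1.47 and Marco from 0.69 to 1.37. With the mean of a gene's probe sets, the largest 90 d value among the 12 was 0.69. Tmem45b and Tmem45a2 had 0.11 ± 0.06 and -0.08 ± 0.08 (SE, adjusted p = 0.551 and 0.791).

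Of 15 genes of the myosin phosphatase system, 0 passed at either time, with 5 at an unadjusted p under 0.05 at 21 d and 0 at 90 d. The phosphatase's own subunits Ppp1r12a and Ppp1cb had -0.15 ± 0.09 and -0.18 ± 0.10 (SE, limma adjusted p = 0.63 and 0.569) at 90 d. The family members Ppp1r14b, Ppp1r14c and Ppp1r14d had differences of -0.05, 0.08 and -0.04, and that of Ppp1r14b was 0.05 without treated replicate 1.

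Ppp1r14a is abundant in smooth muscle, and 10 markers of that cell type were measured. None passed, 1 at each time had an unadjusted p under 0.05, and their median at 90 d was -0.02. Their mean level at 90 d was 6.27 to 6.61 in treated and 6.13 to 6.67 in vehicle livers. It was 6.27 in replicate 3 and 6.30 in replicate 6, the lowest of the treated livers, where Ppp1r14a was highest. The part of smooth muscle cells in the Ppp1r14a values was not tested. Tagln and Lmod1 had 0.26 ± 0.17 and -0.17 ± 0.08 (SE, limma adjusted p = 0.643 and 0.483).

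Markers of the other liver cell types did not pass at either time. Of 10 stellate cell markers, 0 had an unadjusted p under 0.05 at either time, with Des at 0.25 ± 0.15 and Reln at -0.22 ± 0.17 (SE, limma adjusted p = 0.613 and 0.714) at 90 d. Of 7 cholangiocyte and progenitor markers, 4 had an unadjusted p under 0.05 at 90 d, 3 with higher and 1 with lower signals. The lower one was Sox9, a transcription factor of bile duct cells (-0.33 ± 0.15 SE, adjusted p = 0.448). Krt7, a keratin of these cells, had 0.38 ± 0.11 (SE, adjusted p = 0.141) and passed in 1 of 32 alternatives. The largest difference was that of Cd24a, a surface protein of progenitor cells (0.91 ± 0.26 SE, adjusted p = 0.13), followed by Prom1 (0.65 ± 0.19 SE, adjusted p = 0.15). Cd24a passed in 3 alternatives, with the Gapdh difference as a covariate, without the 5 arrays over 0.9 and without treated 21 d replicate 2 (limma adjusted p = 0.0398, 0.0198 and 0.0442, in a range of 0.0198 to 0.31). The mean of this list was 5.50 to 5.97 in treated and 5.15 to 5.81 in vehicle livers at 90 d, beside the higher signals of the 6 genes, and its part in them was not tested.

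All 10 Kupffer cell and macrophage markers had values above 0 at 90 d, as did 57.3% of all genes, with a median of 0.36. Of them 0 passed and 1 had an unadjusted p under 0.05. At 21 d 1 of the 10 was above 0, against 43.7% of all genes, with a median of -0.39. Their mean at 90 d was 8.19 to 9.63 in treated and 8.04 to 9.34 in vehicle livers. The treated liver with the lowest mean, replicate 4 at 8.19, had 7.52 for Ddias, 7.55 for Cox6b2 and 5.51 for Bex1, above all vehicle livers. Ppp1r14a was at its lowest there, at 6.02, still above all vehicle livers, and it was highest in replicates 6 and 3, whose marker means were 9.10 and 9.63. Replicate 5, with a marker mean of 9.51, had a Ppp1r14a signal of 6.30. This was below the 6.61 of replicate 2, whose marker mean was 8.36. Among vehicle livers at 90 d, replicates 2 and 4 were highest both in this mean (9.34 and 8.71) and in Ppp1r14a (5.67 and 5.65). At 21 d vehicle replicates 1 and 5 were highest in both (means 10.22 and 9.48, Ppp1r14a 6.27 and 5.60), as was treated replicate 2. Treated 21 d replicate 1 had the lowest marker mean of its group, 7.99, and a Ppp1r14a signal of 6.04, below only that of replicate 2. The part of these cells in the Ppp1r14a values was not tested.

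Cd68, one of these markers, had 0.60 ± 0.36 (SE, limma adjusted p = 0.614). Of 8 endothelial markers 0 passed, with Tek at 0.34 ± 0.13 and Lyve1 at 0.16 ± 0.26 (SE, adjusted p = 0.336 and 0.884), and Lyve1 had -0.07 without treated replicate 5. Of the 8 hepatocyte markers 1 was above 0 at each time, against 43.7% of all genes at 21 d and 57.3% at 90 d. Their medians were -0.05 at 21 d and -0.02 at 90 d. The hepatocyte markers Tat and Asgr1 had -0.35 ± 0.12 and 0.11 ± 0.07 (SE, adjusted p = 0.278 and 0.611) at 90 d, and Asgr1 was the 1 above 0.

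**Figure D5:**
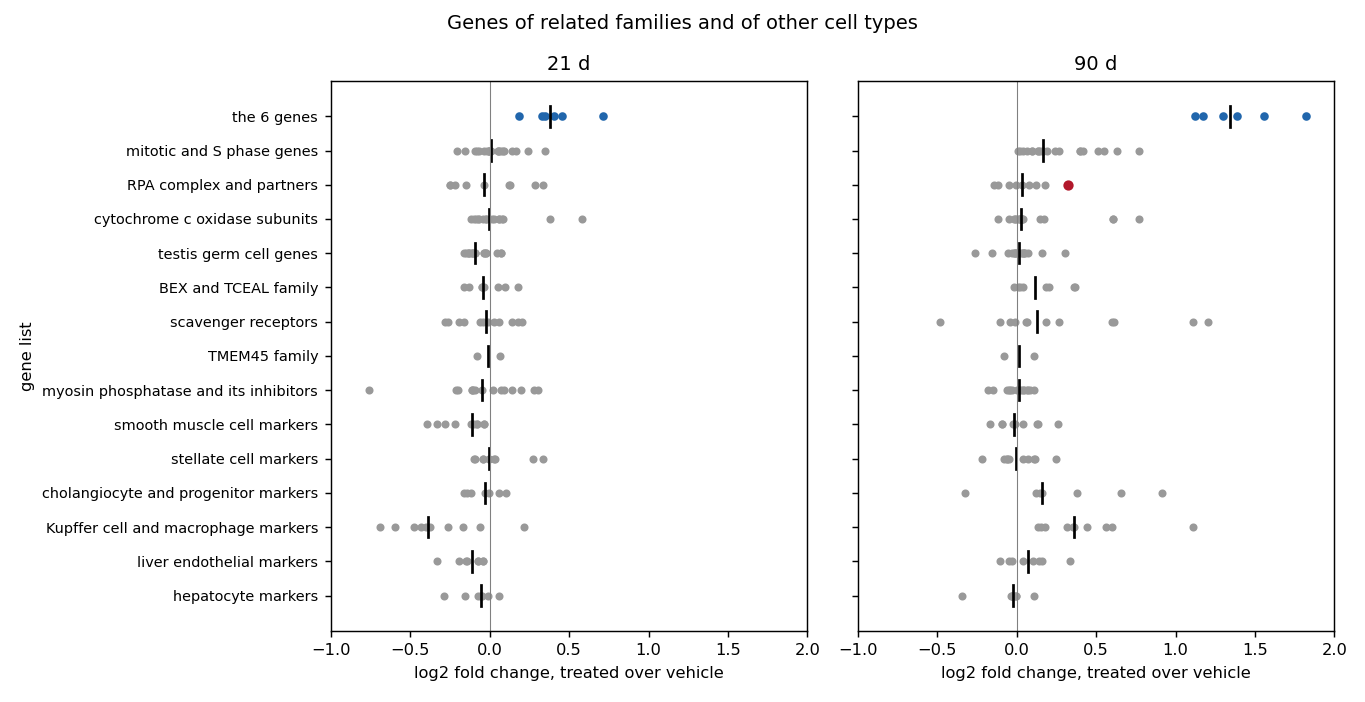
Log2 fold change of treated over vehicle livers (horizontal axes) at 21 d and 90 d for the measured genes of 14 lists and for the 6 genes (blue, top row). Each point is 1 gene, black bars are medians, and the red point is Rpa1, the only listed gene that passed; the 6 genes lie above 1 at 90 d, the contrast that chose them, and between 0.18 and 0.71 at 21 d.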

How the data were processed

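Liver RNA of 23 mice was measured on 1 Affymetrix array each. The deposited values are log2 signals made with Partek and RMA (robust multi-array average: background correction, a common distribution and 1 value per probe set), per the submitters' processing notes, with versions not given in the sources used here, and the log2 base was inferred from the values. RMA removes shifts common to all genes. Of 45101 probe sets, 64 controls were left out. In R 4.3.3, limma 3.58.1 fitted the 4 group means to 45037 probe sets (functions lmFit and eBayes, 19 residual degrees of freedom, Benjamini-Hochberg adjustment over all probe sets, threshold 0.05). Replicates are separate animals; the number of arrays limits precision. The fit was tested on simulated data.

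The 6 genes, the lists and the tests were chosen with earlier results of these data known. Named genes were the 6, Cdkn1a and the 3 nearest genes of each of the 6 by Pearson's r. Of each list up to 4 passing genes were named, or else the 2 with the largest change at 90 d. Bex2, Cox6b1, Ppp1r14b, Ppp1r14c, Ppp1r14d, Sox9, Krt7, Colec12 and Cd163 were added after their values were seen. So were the alternatives of Cd24a, Krt7, Colec12, Scara5, Marco and Mcm5. Settings varied were a filter on dim probe sets, the mean of a gene's probe sets, only the groups compared, centring, quantile normalization, the replicate number as a block, another spread estimate, array weights, the Gapdh difference, and each array left out. Start regions came from RefSeq's GRCm38.p6 table. The proteins of the 6 genes were not analysed here.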

Additional observations from a re-analysis of the deposited data

Results flagged for a closer look

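For most of the genes named here, 172 combinations of a probe set and a group were checked. In 17, 1 liver lay far from the others of its group by Dixon's criterion, which chance gives in about 1 of 20. Treated 21 d replicate 2 made up 7 of them: Cox6b2 at 6.37 (others 5.52 to 5.76), Scara5 at 10.88 (7.20 to 7.65), Marco at 11.73 (6.75 to 7.31), Cd68 at 9.11 (6.32 to 6.87), Cd163 at 8.42 (7.21 to 7.44), Lyve1 at 7.52 (6.36 to 6.53) and, low, Reln at 9.34 (10.27 to 10.59). Treated 90 d replicate 5 made up 4: Cox7a1 at 8.96 (others 5.25 to 6.59), Cox8b at 9.18 (4.80 to 5.95), Des at 8.52 (7.29 to 7.58) and Lyve1 at 7.92 (6.34 to 6.83). In vehicle livers the distant values were Scara3 at 4.74 (others 5.20 to 5.39) and Mcm5 at 5.61 (6.35 to 6.77), both in 21 d replicate 4, Cox7a1 at 5.07 (5.65 to 5.90) in 21 d replicate 6, Cdkn1a at 7.27 (6.41 to 6.72) and Ppp1r14d at 3.76 (4.17 to 4.35), both in 90 d replicate 3, and Tek at 7.34 (7.56 to 7.68) in 90 d replicate 5.

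The Gapdh control probe sets, which are outside the 45037 tested and entered gene comparisons only in the settings on RNA state, gave a 3' minus 5' value that was 0.67 higher with treatment at 21 d (2-sided exact permutation p = 0.0216), and at 90 d 0.03 higher (exact permutation p = 0.909).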

How the results depend on the processing

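The 90 d differences of the 6 genes kept their sign and moved by less than the spread between replicates under each setting that kept them (Ddias 1.46 to 2.12, Cox6b2 1.34 to 1.85, Bex1 1.23 to 1.54, Scara3 1.20 to 1.49, Tmem45a 1.02 to 1.34, Ppp1r14a 0.98 to 1.22). At 21 d all 6 stayed above 0 in each setting that kept them (the filter on dim probe sets kept only Tmem45a). Adjusted p-values of limma lay between 0.221 and 0.712 for Cox6b2, 0.565 and 0.979 for Bex1, 0.248 and 0.770 for Scara3, 0.289 and 0.770 for Tmem45a and 0.0814 and 0.635 for Ppp1r14a. The number of the 6 passing at 21 d, 0, was 1 (Ddias) with the Gapdh difference as a covariate and 1 (Ddias) without the 5 arrays over 0.9. It was 0 with each array left out in turn.

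Over all probe sets, 431 passed at 21 d and 226 at 90 d. These counts were 813 at 21 d with probe sets of a mean of at least 6, and 207 and 149 with only the groups compared. They were 1426 and 463 with array weights, and 123 and 504 with the Gapdh covariate. Without the arrays over 0.9 the 90 d count was 761. Leaving out 1 array gave 133 (without vehicle 21 d replicate 2) to 2265 (without treated 21 d replicate 2) at 21 d, and 114 (without vehicle 90 d replicate 5) to 389 (without treated 90 d replicate 6) at 90 d. Among listed genes, 0 passed at 21 d, against 2 with the filter on dim probe sets, 1 with array weights, 1 with the Gapdh covariate, 1 without the arrays over 0.9 and 0 to 5 with 1 array left out (5 without treated 21 d replicate 2). At 90 d 1 passed, against 2 with gene means, 0 with only the groups compared, 0 with centred arrays, 3 with array weights, 6 with the Gapdh covariate, 7 without the arrays over 0.9 and 0 to 4 with 1 array left out (4 without treated 21 d replicate 2). At 90 d Cox8b ranged from -0.018 (without treated replicate 5) to 0.86 and Lyve1 from -0.069 (without treated replicate 5) to 0.27 with 1 array left out, and Ppp1r14b from -0.098 to 0.052 (without treated replicate 1). Cox6b1 was -0.014 with quantile normalization. The causes of these shifts were not tested.

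The sample labels do not state whether the replicate numbers pair the animals. Deviations from the group means of same-numbered treated and vehicle livers correlated between -0.195 and -0.139 at 21 d (5 pairs). At 90 d the range was -0.358 to -0.231 (6 pairs). Over all pairs of groups the median was -0.157 for same and 0.043 for different numbers, and the source of this difference was not tested. With the number as a block, 91 probe sets passed at 21 d and 148 at 90 d, with 0 listed genes at 90 d. The block ended the 21 d call of the second Cdkn1a probe set (1.67, adjusted p = 0.061) and the 90 d call of Rpa1 (0.32, adjusted p = 0.0976). Precision was limited by 5 or 6 arrays a group, and the dim signals of Bex1 and of the second Ddias probe set lie near the lower end of the scale.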
